A study of Mus musculus with 18 samples.

Results

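The genes examined here encode the subunits of Mediator, the complex that sits between enhancer-bound transcription factors and RNA polymerase II. Members were all rows of the nascent RNA count table whose mouse symbol was Med followed by a number (with or without a final l), or was Cdk8, Cdk19 or Ccnc. This rule found 34 of 54232 rows, which carry 33 symbols because Med20 is listed under 2 gene identifiers. One of the Med20 rows had no count in any library, so 33 rows, 1 for each symbol, are described. All 33 passed the filter on low counts. Nascent RNA was labelled with 4-thiouridine (4sU), a uridine analogue that marks RNA made during the pulse, at 500 µM for 45 min, so the values track recent synthesis more than the RNA already present in the cell.

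Cells came from C57BL/6 fetal livers at e12.5 to e13.5, were sorted by flow cytometry, and were rested in culture before labelling. The 5 erythroid populations were lineage-negative and were ordered by CD71 (the transferrin receptor) and Ter119 (a late erythroid surface antigen). S0-Low cells are lowest for CD71 (titled CD71 low and marked CD71- in the labels), have no Ter119 and, per the study, hold stem and progenitor cells with the earliest committed erythroid progenitors. S0-Medium and S1 have medium and high CD71 without Ter119, S2 has high CD71 with medium Ter119, and S3 is high for both. The sixth group, Lin+, stained with antibodies to CD41, CD45R, CD3e, CD11b and Ly-6G/6C, and the labels call it primary erythroblasts like the others. Each group had 3 libraries, and totals ran from 9452476 counts (S0-Low replicate 3) to 40567976. Nothing in the sources used here says whether same-group libraries came from separate litters, so p-values measure only the spread between these libraries.

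Markers followed the sort. Alas2, the erythroid haem synthesis enzyme, had 4.00 to 5.48 CPM (counts scaled to library size by TMM, the trimmed mean of M values) in S0-Low and 2597 to 4056 in S3, and Kit, the progenitor receptor, had 321 to 729 against 0 to 2.61. The Lin+ libraries did not look erythroid, with Alas2 at 0 to 2.80 CPM and a summed level of 8 myeloid markers of 2970 to 5455 CPM. For S0-Low the same 8 markers summed to 436 to 806 CPM, for S0-Medium to 16.6 to 195 and for S3 to 0 to 5.41 (6 of 8 at 0 in every S3 library), and Itgam, which encodes CD11b, had no count in any library. S0-Low thus held myeloid transcripts, and in bulk samples such as these fewer cells of a type and less RNA per cell cannot be told apart.

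Mediator is built from head, middle and tail modules held together by the scaffold subunit Med14, and it contacts polymerase II at promoters. A separable kinase module, made of Cdk8 or Cdk19, cyclin C (Ccnc), Med12 or Med12l, and Med13 or Med13l, binds the core reversibly and competes with polymerase for it. In erythroid cells the middle subunit Med1 is known as a partner of erythroid transcription factors. The paralogues of the kinase module take the same place in the complex, and a module holds 1 of each pair.

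Promoters are shown for Med12, Med13 and Med21, which rose from S0-Low to S3 and whose 250 bases before the RefSeq start (GRCm38.p6) lie outside every annotated gene. Each is given 5′ to 3′ on the gene's strand. Capitals mark CCNCNCCC, the Krüppel-like factor site, searched together with GATAA, the core of the GATA factor site, on both strands, with overlapping matches run together.
Med12 (chrX:101273841-101274090, plus strand): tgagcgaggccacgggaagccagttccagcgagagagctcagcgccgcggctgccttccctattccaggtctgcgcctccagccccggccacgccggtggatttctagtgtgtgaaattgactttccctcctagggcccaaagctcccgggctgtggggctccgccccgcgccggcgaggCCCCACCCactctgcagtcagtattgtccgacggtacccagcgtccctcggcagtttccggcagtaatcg
Med13 (chr11:86357597-86357846, minus strand): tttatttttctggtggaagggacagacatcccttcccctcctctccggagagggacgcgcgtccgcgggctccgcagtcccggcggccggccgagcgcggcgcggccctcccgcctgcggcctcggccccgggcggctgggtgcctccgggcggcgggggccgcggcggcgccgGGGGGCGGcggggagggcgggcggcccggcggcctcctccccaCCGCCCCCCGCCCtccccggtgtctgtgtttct
Med21 (chr6:146642329-146642578, plus strand): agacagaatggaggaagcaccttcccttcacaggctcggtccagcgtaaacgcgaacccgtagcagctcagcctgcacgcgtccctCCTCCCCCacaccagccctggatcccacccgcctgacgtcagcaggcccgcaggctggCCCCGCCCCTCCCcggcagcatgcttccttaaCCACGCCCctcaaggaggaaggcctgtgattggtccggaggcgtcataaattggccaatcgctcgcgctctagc
Med12 held 1 CCNCNCCC match, Med13 held 3 and Med21 held 4, some of which overlap, and none of the 3 held GATAA. The starts listed for Cdk8, Med13l, Med12l and Med7 lie inside the annotated gene, so those windows are described without letters. Cdk8 and Med13l held 1 CCNCNCCC match each and Med12l and Med7 none, and Med13l alone held GATAA. The G and C content was 84.0% in Med13l, 80.0% in Med13 and 49.2% in Med7, and the median was 56.8% over 28 member promoters and 52.4% over all 32851 promoters of that length. CCNCNCCC was present in 12 of the 28 member promoters (42.9%) and in 45.9% of all promoters, and GATAA in 4 (14.3%) against 22.6%. The ETS factor motif CCGGAAG, the NRF1 motif and the YY1 motif AAGATGG each matched 4 member promoters (14.3%), against 6.91%, 3.74% and 4.49% of all promoters, and TATAAA matched 3 (10.7%) against 12.4%. These matches were counted on both strands and are a description with no test. Cdk19, Med8, Med23, Med24 and Med30 had no entry.

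**Figure D1:**
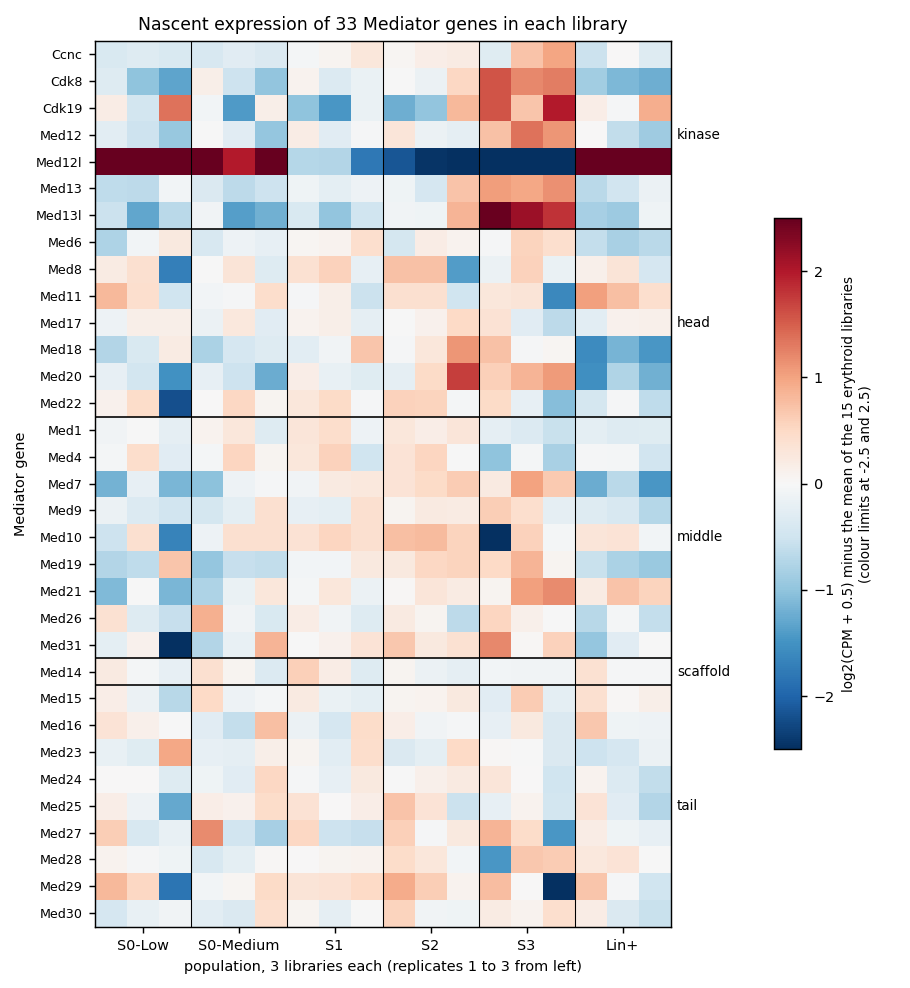
Colour gives log2(CPM + 0.5) of each of the 33 Mediator genes (rows, by module) in each of the 18 libraries (columns, by population), minus that gene's mean over the 15 erythroid libraries. Cdk8, Med12, Med13 and Med13l are redder in each S3 library than in any other library, Cdk19 is red in S3 and also in S0-Low replicate 3, and Ccnc is red in S3 replicates 2 and 3 and pale blue in replicate 1. Med12l runs from red in S0-Low, S0-Medium and Lin+ to dark blue in S3, and most head, middle and tail genes stay pale apart from single libraries such as S3 replicate 1 for Med10.

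Nascent transcription of the complex was first averaged over its genes. The mean of log2(CPM + 0.5) over the 33 members was 5.57 ± 0.24 (SD, n = 3) for S0-Low, 5.68 ± 0.09 for S0-Medium, 5.71 ± 0.06 for S1, 5.83 ± 0.02 for S2, 5.85 ± 0.21 for S3 and 5.61 ± 0.09 for Lin+. The difference of 0.29 between S3 and S0-Low was close to the SD of either group. It depends on Med12l, the 1 member that was called lower in S3. Over the 32 members without Med12l, a set chosen after its values were seen, the mean was 5.51 ± 0.26 in S0-Low and 6.06 ± 0.21 in S3, a difference of 0.55, and the libraries of the 2 groups did not overlap. Over all 17755 genes tested in the 18 libraries the same mean was 3.15 ± 0.19 in S0-Low and 2.57 ± 0.23 in S3. With library totals in place of TMM scaling, the members' difference between S3 and S0-Low was -0.52 (-0.28 without Med12l), so its sign depends on the scaling.

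The even mean hid different gene profiles. The ratio of the highest to the lowest of the 5 erythroid population means was under 2 for 20 of the 33 members (60.6%), against 22.2% of all genes tested in the erythroid libraries, and its median was 1.55 against 4.77. The members are also transcribed above the typical gene, with a median log2(CPM + 0.5) of 5.84 in S0-Low against 3.49 for all genes. The smallest ratio was that of Med24 (1.15) and the largest that of Med12l (1133). The next largest were Med13l (7.83), Cdk19 (4.88) and Cdk8 (4.55), all of the kinase module. The highest mean fell in S2 for 13 members and in S3 for another 13, which is 39.4% each, against 15.2% and 28.0% of all genes.

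S3 against S0-Low sets the end of the series against its start. S3 was higher for 6 of the 33 members (Med13l, Cdk8, Med12, Med21, Med13 and Med7) and lower for 1 (Med12l), taking an adjusted p below 0.05 from the quasi-likelihood fit of edgeR as the threshold. Over all 16555 genes 35.8% were called, 13.4% higher and 22.4% lower, so the members' share of calls (21.2%) was under the background and their share of higher calls (18.2%) was near it. DESeq2 called 9 members (27.3%), 8 higher and 1 lower, against 26.4% of all genes, 8.89% higher and 17.5% lower. The 3 libraries of S3 lay wholly above those of S0-Low for 9 members, where 16.6% of all genes did, and wholly below for 2, Med1 and Med12l, where 25.9% did. By module the calls were 5 of 7 in the kinase module (4 higher, 1 lower), 2 of 9 in the middle (both higher), and 0 of 7, 0 of 1 and 0 of 9 in head, scaffold and tail. In those 3 modules 0 genes passed at an unadjusted p under 0.05 as well, where 47.4% of all genes did, and DESeq2 called 1, Med20 of the head, as higher, where it called 26.4% of all genes. The median log2 fold change was 1.48 for the kinase module, 0.57 for the middle, 0.25 for the head and 0.12 for the tail, and 0.28 for all members against -0.54 for all genes.

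The size of these changes depends on how the libraries are scaled. TMM factors of this fit were 0.594 to 0.755 in S3 and 1.13 to 1.31 in S0-Low, and with library totals the median of all genes moved by -0.82, from -0.54 to -1.36. Under library totals 9 members were called, 3 higher (Med13l 2.16, Cdk8 1.38 and Med12 0.81) and 6 lower (Med12l, Med1, Med4, Med14, Med17 and Med23), against 6 higher and 1 lower under TMM. Over all genes 44.6% were then called, 6.98% higher and 37.6% lower, against 27.3% of the members. The sign of the fold change turned for 14 of the 33 members. Med13 (0.62), Med7 (0.58) and Med21 (0.63) kept their sign without passing. Med13l, Cdk8 and Med12 passed in the same direction in all 15 alternatives run, and Med12l in the 14 that could test it.

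**Figure D2:**
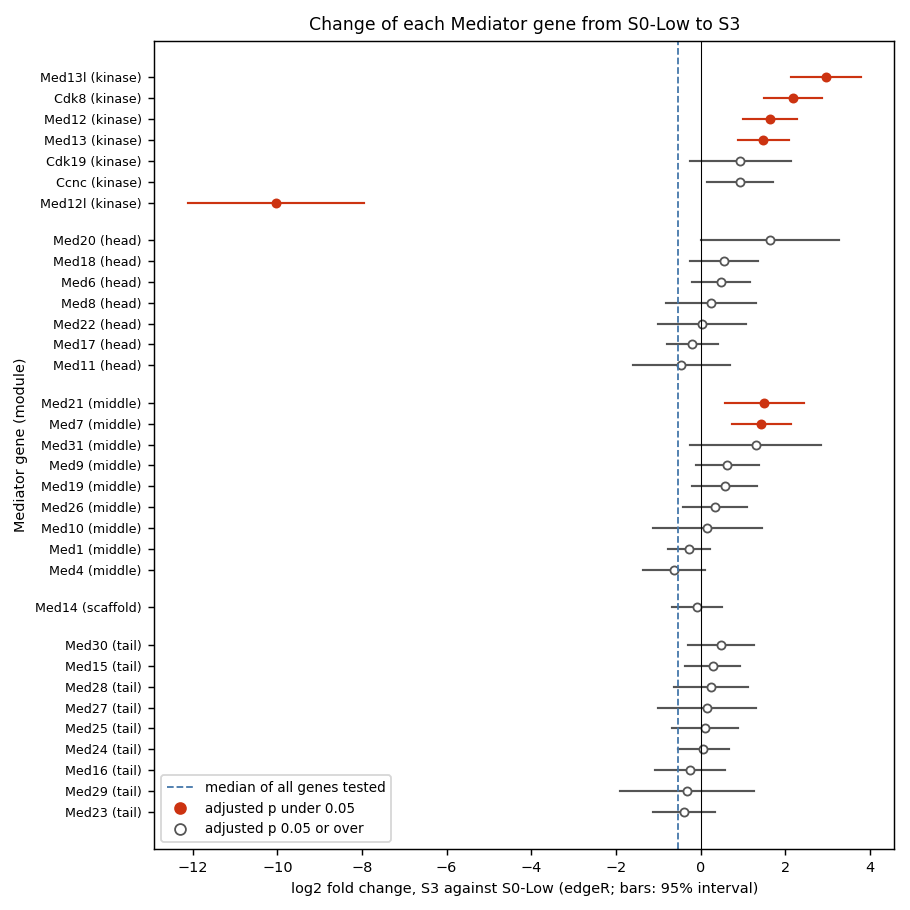
Points are the edgeR log2 fold changes of S3 against S0-Low for the 33 Mediator genes, by module, with 95% intervals; filled red points have an adjusted p under 0.05, and the dashed line is the median of all genes tested (-0.54). Red points fall in the kinase and middle modules, with 4 kinase module genes between 1.48 and 2.97 and Med12l at -10.03 under TMM scaling. Under library totals Med13, Med7 and Med21 do not pass.

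Cdk8 is the cyclin-dependent kinase of the module. It had 158, 98.9 and 79.4 CPM in the 3 S0-Low libraries, 221, 138 and 100 in S0-Medium, 211, 156 and 178 in S1, 197, 180 and 284 in S2, and 589, 460 and 483 in S3. Every S3 library was above every other erythroid library, S2 lay above S0-Low, and the other pairs of earlier populations overlapped. The log2 fold change from S0-Low was 2.19 ± 0.35 (SE), a ratio of 4.55, with an adjusted p of 0.00029. Lin+ libraries had 109, 90.7 and 85.0 CPM, within the S0-Low range.

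Cdk19, the paralogous kinase, had 88.9, 56.4 and 201 CPM in S0-Low, 73.8, 28.9 and 85.7 in S0-Medium, 38.5, 28.1 and 69.4 in S1, 33.2, 38.8 and 137 in S2, and 231, 126 and 307 in S3. Its means were lowest in S1 (45.3) and highest in S3 (221), and S0-Low replicate 3 lay above S3 replicate 2. The difference of S3 and S0-Low did not pass (log2 fold change 0.94 ± 0.61, adjusted p = 0.24, 95% interval -0.26 to 2.14), whereas the edgeR test over all 5 populations called Cdk19 (adjusted p = 0.046). Within each replicate number S3 was above S0-Low, and edgeR with the replicate number as a block called Cdk19 (1.06, adjusted p = 0.013). Lin+ libraries had 87.0, 76.1 and 145 CPM.

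Ccnc encodes cyclin C, the cyclin of both kinases. Its libraries were tight in S0-Low (20.7, 21.7 and 20.8 CPM) and S0-Medium (20.6, 22.3 and 21.0). S1 had 26.1, 28.6 and 32.9 CPM, S2 had 28.1, 30.5 and 31.4, and S3 was spread at 21.8, 44.5 and 54.2. Lin+ had 18.4, 27.3 and 21.5 CPM. The S3 libraries did not overlap S0-Low, by a narrow margin at replicate 1. The log2 fold change of 0.93 ± 0.40 missed the threshold (adjusted p = 0.076). Over the left-out replicates it ran from 0.64 to 1.22, and it passed without S3 replicate 1 (1.22, adjusted p = 0.017).

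Med12 is the subunit that activates the kinase. It had 92.1, 77.7 and 57.5 CPM in S0-Low, 110, 91.7 and 56.9 in S0-Medium, 127, 91.0 and 110 in S1, 138, 100 and 95.2 in S2, and 185, 285 and 241 in S3. Only the S3 libraries stood clear of the rest. The log2 fold change was 1.64 ± 0.32, a ratio of 3.12 (adjusted p = 0.0013). In Lin+ it had 112, 72.4 and 60.1 CPM.

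Med12l, the Med12 paralogue, was all but silent in late cells. It had 223, 106 and 250 CPM in S0-Low, 244, 37.5 and 122 in S0-Medium, 5.39, 5.32 and 2.30 in S1, 1.69, 1.25 and 0.321 in S2, and 0.151, 0.360 and 0 in S3. The libraries of S0-Medium, S1 and S2 did not overlap, and S2 replicate 3 fell below S3 replicate 2. The S0-Low libraries held 15914 counts and the S3 libraries 10, which is 925-fold fewer per scaled library (exact 95% interval 503 to 1929, counting error only). The library at 0 allows up to 0.172 CPM. The fitted log2 fold change was -10.03 ± 1.06 (adjusted p = 1.2e-05), a value that depends on the prior count.

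Lin+ had the most Med12l, at 467, 235 and 323 CPM. The myeloid markers given above followed it in part. They were highest in Lin+ and lower in S0-Low, and summed to 2.20 to 3.79 CPM in S1. In S0-Medium they had already fallen to 16.6 to 195 CPM, where Med12l had 244, 37.5 and 122. Other lists are given in the order S0-Low, S0-Medium, S1 and Lin+. The 5 lymphoid markers summed to 96.1 to 172, 8.36 to 60.7, 0.756 to 1.25 and 236 to 492 CPM. The 3 mast cell and basophil markers summed to 21.5 to 32.4, 0.886 to 3.19, 0.0667 to 0.104 and 86.7 to 176. For 3 endothelial markers the sums were 56.8 to 160, 16.5 to 46.2, 2.90 to 9.14 and 159 to 264. The endothelial sum was 0.0846 to 1.89 in S2 and 7.79 to 12.3 in S3. The 4 hepatoblast markers, at 5.78 to 9.05, 2.79 to 7.95, 1.30 to 2.80 and 0.808 to 3.37, were not highest in Lin+. The 5 megakaryocyte markers summed to 80.6 to 163, 92.0 to 187, 36.8 to 128 and 356 to 1037 CPM, and to 55.5 to 115 in S3. Their genes differed. In the same order the means were 90.0, 89.3, 15.2 and 280 CPM for Itga2b and 7.31, 9.57, 0.554 and 126 for Pf4. They were 29.8, 49.5, 43.1 and 202 for Vwf and 6.99, 4.85, 8.66 and 8.38 for Gp9. Gp1bb was at most 0.976 in any library. The part of these cells in the fall of Med12l was not tested. The Med12l gene (GRCm38, chr3:59005419-59318446) also spans 8 other annotated genes, among them the receptor genes Gpr171, P2ry12, P2ry13 and P2ry14. Gpr171 had mean levels of 45.3 CPM for S0-Low, 3.85 for S0-Medium, 0 for S1 and S3, and 33.7 for Lin+. The strand setting of the quantification is not given in the sources used here. Whether reads of overlapping genes on the other strand entered the Med12l counts was not tested. Ccnc, Cdk19 and Med13 also overlap annotated genes, and Cdk8, Med12, Med13l and Med7 overlap none.

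Med13 joins the kinase module to the core. Its libraries had 213, 212 and 318 CPM in S0-Low, 261, 211 and 234 in S0-Medium, 309, 283 and 306 in S1, 310, 249 and 547 in S2, and 688, 656 and 736 in S3. S3 was above all other libraries, and S2 replicate 3 stood apart from the rest of its group. The log2 fold change was 1.48 ± 0.30, a ratio of 2.79 (adjusted p = 0.0017). Lin+ libraries had 209, 238 and 303 CPM.

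Med13l, its paralogue, had the largest fold change upward among the members under both scalings. It had 362, 213 and 327 CPM in S0-Low, 491, 201 and 226 in S0-Medium, 400, 266 and 373 in S1, 490, 487 and 944 in S2, and 2926, 2297 and 1832 in S3. The lowest S3 library was above the highest of S2, and no S2 library overlapped S1. The log2 fold change from S0-Low was 2.97 ± 0.42, a ratio of 7.82 (adjusted p = 0.0001). Lin+ libraries, at 295, 278 and 484 CPM, overlapped S0-Low.

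**Figure D3:**
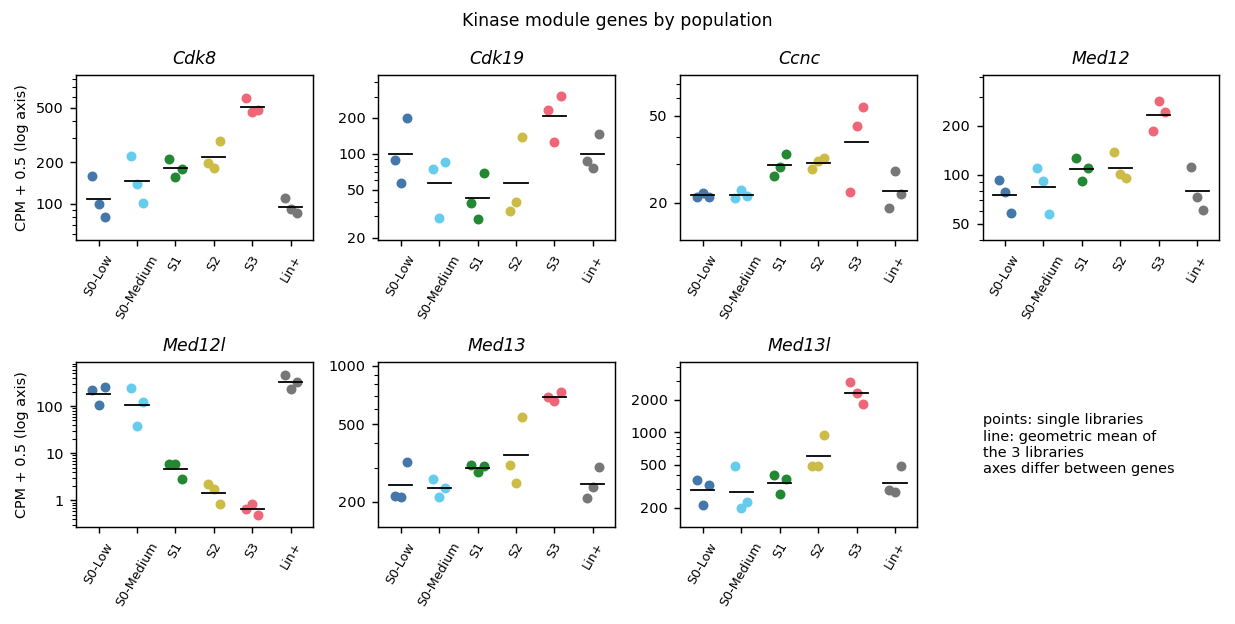
Each panel gives CPM + 0.5 on a log axis for 1 kinase module gene, with a point for each library, a line at the geometric mean of the 3 libraries, and the 5 erythroid populations followed by Lin+. Cdk8, Med12, Med13 and Med13l have all 3 S3 points above the other populations, and Med12l goes from 106 to 250 CPM in S0-Low to under 1 in S3. The Cdk19 lines of S0-Medium, S1 and S2 lie below those of S0-Low and S3.

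A comparison inside each library does not depend on library scaling. With Med12l left out, a choice made after its profile was seen, the median log2 level of the other 6 kinase module genes minus that of the 26 other members was 1.57, 0.96 and 1.81 in the S0-Low libraries and 2.74, 2.55 and 2.93 in S3. The S0-Medium, S1, S2 and Lin+ libraries lay between 0.81 and 2.07. All 3 S3 libraries were thus above the other 15. With Med12l in, the S3 values were 2.06, 2.20 and 2.60 and overlapped S0-Low (1.96, 1.13 and 2.47). These values carry no test.

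**Figure D4:**
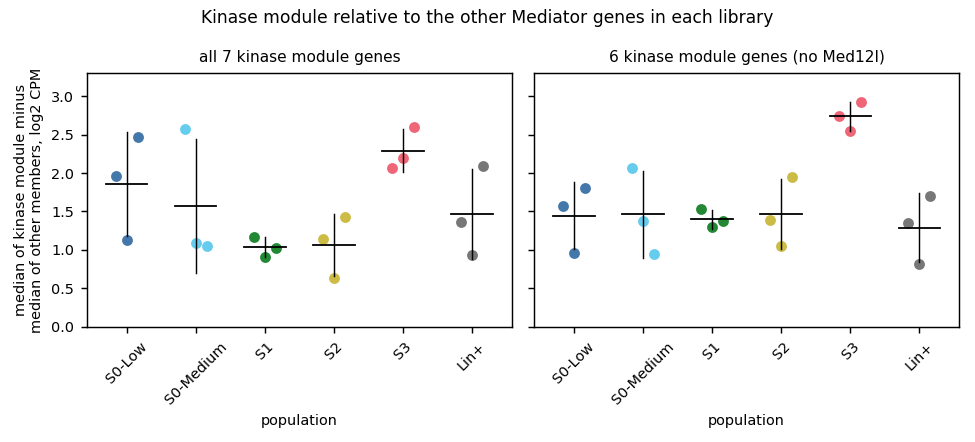
Points give, for each library, the median of log2(CPM + 0.5) over the kinase module minus the median over the other 26 members, with all 7 kinase module genes (left) and without Med12l (right); horizontal lines are means and vertical lines 1 SD of 3 libraries. On the right the S3 libraries sit between 2.55 and 2.93, above every other library.

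The ratio of each paralogue pair within a library, on log2(CPM + 0.5), sets the copies against each other. For Med13l to Med13 the log2 ratio was 0.27 ± 0.43 (SD) at S0-Low, 0.26 ± 0.56 at S0-Medium, 0.19 ± 0.25 at S1, 0.81 ± 0.15 at S2 and 1.74 ± 0.39 at S3. The difference of S3 and S0-Low was 1.47, and all 3 S3 libraries lay above all S0-Low libraries (exact two-sided permutation p = 0.10, the smallest p that 3 against 3 libraries can give, and 0.15 adjusted over the 3 ratios). For Med12l to Med12 it was 1.28 ± 0.83 at S0-Low, 0.32 ± 1.38 at S0-Medium, -4.57 ± 0.67 at S1, -6.23 ± 0.55 at S2, -8.48 ± 0.39 at S3 and 2.06 ± 0.36 for Lin+ (exact permutation p for S3 against S0-Low 0.10, adjusted 0.15). The S3 value rests on the pseudocount, since the Med12l counts were 2, 8 and 0. For Cdk19 to Cdk8 it was -0.10 ± 1.24 at S0-Low, -2.08 ± 0.63 at S1, -1.29 ± 0.61 at S3 and 0.06 ± 0.61 for Lin+, and S3 and S0-Low overlapped (exact permutation p = 0.30, adjusted 0.30). In each of the 3 same-numbered pairs the Cdk19 to Cdk8 ratio was lower in S3. None of the 3 pairs shares a 31-base word between its coding transcripts of an older annotation, so long words that could be assigned to both copies were not found there.

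**Figure D5:**
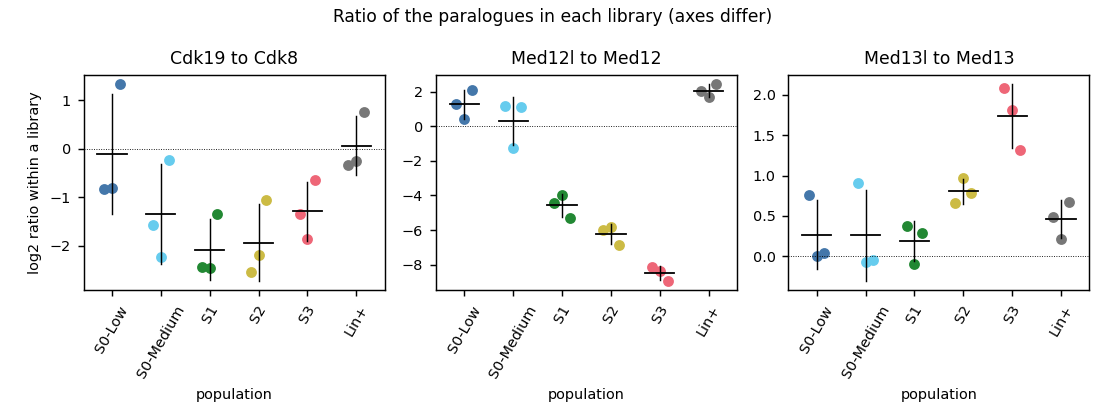
Each panel gives the log2 ratio of a paralogue pair within each library, with a point for each library, the mean as a horizontal line and 1 SD of 3 libraries as a vertical line. Med13l to Med13 is at 1.74 in S3 against 0.27 in S0-Low, the mean of Med12l to Med12 is -4.57 in S1 and lower in S2 and S3, and the Cdk19 to Cdk8 points of S0-Low and S3 overlap.

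Outside the kinase module the calls were Med7 and Med21, which together form a heterodimer of the middle module. Med7 had 34.9, 69.0 and 35.6 CPM in S0-Low, 38.6, 72.5 and 77.4 in S0-Medium, 74.9, 92.9 and 94.9 in S1, 101, 111 and 124 in S2, and 93.2, 159 and 125 in S3, with a log2 fold change of 1.43 ± 0.36 (adjusted p = 0.0065). That call was lost under library totals and with only the 6 libraries compared (1.24, adjusted p = 0.054). Its S2 libraries already lay above all S0-Low, S0-Medium and S1 libraries. In Lin+ it had 33.5, 49.4 and 28.7 CPM. Med21 had 11.4, 25.1 and 11.1 CPM in S0-Low, 14.5, 22.3 and 30.5 in S0-Medium, 24.4, 30.6 and 22.8 in S1, 25.7, 31.2 and 29.1 in S2, and 26.3, 51.8 and 57.4 in S3, with a log2 fold change of 1.51 ± 0.47 (adjusted p = 0.023). The S0-Low and S3 ranges of Med21 were separated by little, and its call was lost without S0-Low replicate 1 (1.26, adjusted p = 0.10) without S0-Low replicate 3, S3 replicate 2 or S3 replicate 3, with no filter, under library totals and with only the 6 libraries compared (7 of 15 alternatives).

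Med14, the scaffold, did not pass. It had 107, 89.7 and 79.6 CPM in S0-Low, 121, 97.2 and 72.8 in S0-Medium, 139, 105 and 73.2 in S1, 96.9, 83.1 and 78.3 in S2, 88.1, 87.1 and 86.3 in S3, and 121, 89.9 and 90.1 in Lin+ (S3 against S0-Low log2 fold change -0.08 ± 0.30, adjusted p = 0.85). Med1 had 166, 174 and 151 CPM in S0-Low, 186, 215 and 141 in S0-Medium, 218, 240 and 161 in S1, 215, 197 and 218 in S2, 150, 139 and 119 in S3, and 148, 141 and 142 in Lin+. Its S3 libraries were just under those of S0-Low (log2 fold change -0.27 ± 0.26, adjusted p = 0.42). Med22 of the head had the smallest fold change (0.03 ± 0.53), with wide groups of 57.9, 74.6 and 11.3 CPM in S0-Low, 54.4, 77.7 and 56.7 in S0-Medium, 66, 75.6 and 52.5 in S1, 80.1, 80.0 and 52.4 in S2, 75.7, 46.4 and 25.5 in S3, and 39.5, 52.6 and 34.5 in Lin+. The 17 members not described library by library had 0 calls here by edgeR and log2 fold changes from -0.63 (Med4) to 1.30 (Med31), 11 of them positive. Single libraries were low, as Med31 at 0.664 CPM in S0-Low replicate 3, the shallowest library, Med10 at 3.41 in S3 replicate 1 and Med29 at 1.26 in S3 replicate 3. Med20 had under 16 CPM throughout. Its 2 identifiers share 459 words of 31 bases in an older annotation, but all of its counts lay on 1 of them.

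The adjacent steps divide this change. Between S0-Medium and S0-Low, S1 and S0-Medium, and S2 and S1, edgeR called 0 members and 0.0% of all genes. At an unadjusted p under 0.05 there were 0, 1 and 2 members, where 3.26%, 6.86% and 4.03% of all genes passed, and DESeq2 called 0, 1 and 0 members and 0.200%, 1.47% and 0.521% of all genes. The member in S1 against S0-Medium was Med12l (log2 fold change -4.96 ± 0.82, adjusted p = 0.064). It passed with the replicate number as a block (-4.86, adjusted p = 0.016) and by DESeq2 (adjusted p = 1.5e-07), and the block called 0.344% of all genes there. With the block S0-Medium against S0-Low called 0.139% of all genes and 0 members. The members in S2 against S1 were Med12l (-1.98 ± 0.74) and Med13l (0.89 ± 0.39).

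S3 against S2 called 3 members, all higher and all of the kinase module, where 9.35% of all genes were called, 3.26% higher and 6.09% lower. These were Med13l (log2 fold change 1.88 ± 0.40, adjusted p = 0.0095), Cdk8 (1.22 ± 0.34, adjusted p = 0.037) and Med12 (1.10 ± 0.32, adjusted p = 0.041). Of 15 alternatives, the call was lost in 3 for Med13l, 6 for Cdk8 and 8 for Med12. With the replicate block 7 were called, adding Cdk19 (1.83) and Med13 (0.97) as higher and Med1 (-0.64) and Med4 (-0.90) as lower, while the share of all genes called rose to 18.6%, against 21.2% of the members. The count was 0 without S2 replicate 1 or S2 replicate 2 and 0 with only the 6 libraries compared, where 3.95%, 3.94% and 0.823% of all genes were called. It was 1 (Med13l) without S3 replicate 3 and 5 without S2 replicate 3, where 4.99% and 13.4% of all genes were called. Under library totals 1 member was higher and 3 were lower, where 15.4% of all genes were called, 1.74% higher and 13.7% lower. In the test over all 5 populations, 7 members passed where 24.6% of all genes did, and 6 of these were kinase module genes, the other being Med7. The calls of Cdk19 and Med7 there were lost in 11 and 12 of 23 alternatives, 9 each by leaving out 1 library.

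Between Lin+ and S0-Low, edgeR called 0 members and 0.715% of all genes (0.496% higher and 0.22% lower). With the replicate block 1.93% of all genes and again 0 members were called. Med21 (log2 fold change 1.18 ± 0.44) and Med18 (-1.15 ± 0.40) had an unadjusted p under 0.05, as had 9.85% of all genes, and DESeq2 called Med21 (1.25, adjusted p = 0.039) and 2.24% of all genes. Med21 had 29.1, 41.7 and 37.0 CPM in Lin+. Med18, of the head, had 15.0, 20.4 and 16.6 CPM in Lin+ and 27.5, 35.1 and 52.8 in S0-Low.

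Against S3, 10 members differed in Lin+, where 42.2% of all genes did (28.2% higher and 14.1% lower). Med12l was higher (log2 fold change 10.84 ± 1.02, adjusted p = 6.2e-07) and 9 were lower, from Med13l (-2.74 ± 0.40) and Cdk8 (-2.43 ± 0.34) to Med6 (-1.04 ± 0.33). The others that were lower were Med7 (-1.76 ± 0.36), Med12 (-1.54 ± 0.33), Med13 (-1.47 ± 0.29), the head subunits Med18 (-1.70 ± 0.41) and Med20 (-2.26 ± 0.80), and the middle subunit Med19 (-1.27 ± 0.37). These fits share the S3 or S0-Low libraries with those above, so the comparisons are not independent.

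Med6 had 30.3, 26.3 and 28.8 CPM in Lin+, 26.9, 43.9 and 54.5 in S0-Low, 35.0, 42.3 and 39.8 in S0-Medium, 47.8, 49.1 and 62.0 in S1, 34.1, 52.8 and 49.0 in S2, and 45.6, 68.3 and 62.1 in S3. Med18 had 26.5, 34.4 and 36.8 CPM in S0-Medium, 38.1, 43.1 and 75.1 in S1, 44.9, 55.9 and 99.0 in S2, and 76.8, 45.2 and 47.4 in S3, all above Lin+. Med19 had 33.8, 28.8 and 26.3 CPM in Lin+, 29.9, 32.1 and 82.0 in S0-Low, 25.6, 33.6 and 32.8 in S0-Medium, 47.8, 47.6 and 59.4 in S1, 59.4, 72.0 and 74.1 in S2, and 70.8, 90.5 and 52.7 in S3. Lin+ and S3 did not overlap for any of these genes. Med20 had 1.14, 2.30 and 1.58 CPM in Lin+, 3.59, 2.97 and 1.16 in S0-Low, 3.59, 2.82 and 1.5 in S0-Medium, 4.8, 3.65 and 3.34 in S1, 3.55, 6.07 and 15.2 in S2, and 6.66, 8.06 and 9.42 in S3, again with no overlap of Lin+ and S3. The call of Med6 was lost without S3 replicate 2, Lin+ replicate 2 or Lin+ replicate 3, that of Med20 without S3 replicate 3 or any 1 of the Lin+ libraries, and that of Med19 without S3 replicate 2. Med19 overlaps the genes Tmx2 and Zdhhc5. Under library totals 11 members were called, 7 higher and 4 lower, where 47.7% of all genes were called, 40.1% higher and 7.54% lower, so the split of directions rests on the scaling, while Med12l (higher), Med13l, Cdk8, Med12 and Med7 (all lower) passed either way.

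Levels between genes can be set side by side only per length. Divided by the longest coding transcript of an older annotation, S0-Low means ran from 0.461 CPM per kb (Med20) to 50.9 (Med4), with Cdk8 at rank 4 (37.7) and Med13l at rank 6 (32.2). In S3 Med13l was at rank 1 with 252 CPM per kb, Cdk8 at rank 2 with 172 and Med13 at rank 3 with 65.7, and Ccnc, the cyclin of both kinases, stood at 11.5. Med12l was last in S1, S2 and S3.

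Mediator works with polymerase II, the general transcription factors and other coactivators, and those lists were read from the same fit, in which 35.8% of all genes were called in S3 against S0-Low (13.4% higher and 22.4% lower). Of 12 polymerase II subunit genes 1 passed in S3 against S0-Low, Polr2a, the catalytic subunit with the C-terminal repeats (0.98 ± 0.28, adjusted p = 0.014), and the list median was -0.48. Of 18 general transcription factor genes 2 were higher, Gtf2e2 (2.14 ± 0.38) and Gtf2a1 (0.98 ± 0.35), and 3 were lower, led by the TFIIH genes Gtf2h2 (-2.66 ± 0.74) and Ercc2 (-1.46 ± 0.48). The list median was -0.25. Of 8 coactivator genes 3 were higher, among them the acetyltransferase Ep300 (1.45 ± 0.32), and 3 were lower, led by the acetyltransferase Kat2a (-3.54 ± 1.16) and the nuclear receptor coactivator Ncoa3 (-2.89 ± 0.42). Their median was 0.10.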

How the data were processed

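The members and gene lists used here were chosen with earlier results of these data known. Per the labels, the authors made stranded total RNA libraries (14 PCR cycles, no molecular identifiers) from purified 4sU RNA. Their processing notes name kallisto 0.43.0 and GRCm38. The deposited table holds whole-number counts per gene. The transcript set, the strand setting and the rounding are not given in the sources used here.

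Gene names came from a table of Ensembl IDs and symbols. Counts were fitted with edgeR 4.0.16 (R 4.3.3; TMM, filterByExpr, glmQLFit and glmQLFTest, two-sided), on the 15 erythroid libraries (16555 genes) or, for Lin+, all 18 (17755 genes), with population as the only term. Benjamini-Hochberg adjustment ran over all genes tested, with a threshold of 0.05. CPM used TMM-scaled totals of the 18 libraries, and logs used a pseudocount of 0.5 CPM. The fit was tested on simulated data. Values in every library are given for members called in S3 against S0-Low, S3 against S2 or either Lin+ comparison, the paralogue pairs, Ccnc, Med1, Med14 and the member with the smallest fold change, and fold changes for up to 2 rises and 2 falls that passed in each context list. Some genes that this rule would name are not reported here. Med31, Med10 and Med29 were named after their values were seen.

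Same-numbered libraries of adjacent populations deviated together (correlations 0.17 to 0.55), as did those of Lin+ and S0-Low (0.19 to 0.30), and there the number pairs libraries. For S3 against S0-Low and Lin+ against S3 the correlations were weaker (lowest 0.081 and 0.091), though each library still correlated best with its own number. The pairing comes from the labels' replicate numbers. Alternatives were DESeq2 1.42.0, RLE factors, library totals, other filters, a replicate block, robust fitting, fewer or more libraries in the fit, and each replicate left out. The interval of the Med12l counts and the limit at 0 counts (3 counts on TMM-scaled totals) cover counting error only, and errors of fold changes are edgeR's, from the spread between libraries. Promoters are from RefSeq (GRCm38.p6), with 28 of 33 members matched, and gene positions are from the same assembly. Transcript lengths came from an older annotation.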

Additional observations from a re-analysis of the deposited data

How the results depend on the processing

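Med13l, Cdk8 and Med12 kept direction and call in S3 against S0-Low in all 15 alternatives. The count of members called in S3 against S0-Low ran from 6 to 8 over the left-out replicates (24.6% to 32.7% of all genes), in Lin+ against S3 from 8 to 11 (31.3% to 37.7%), over all 5 populations from 5 to 7 (18.7% to 24.2%), and in S3 against S2 from 0 to 5 (3.94% to 13.4%). In the other steps and in Lin+ against S0-Low it was 0 in each. S3 against S2 gave 6 members with DESeq2 (11.8% of all genes), 7 with the replicate block (18.6%) and 0 with only the 6 libraries compared (0.823%). S1 against S0-Medium gave 1 member, Med12l, with DESeq2, with no filter, with the replicate block and with all 18 libraries. Lin+ against S0-Low gave 1 with DESeq2, and the test over all populations gave 4 where at least 10 counts were required in every compared library (27.2% of all genes), a filter that Med12l could not pass. In Lin+ against S3, Med6 and Med20 each lost their call in 7 of 14 alternatives. The difference of S3 and S0-Low in the mean profile was -0.52 under library totals, 0.55 without Med12l (-0.28 with library totals too), and 0.15 to 0.40 over the left-out replicates. Of the ratios, Cdk19 to Cdk8 ran from -1.55 to -0.47 over the left-out replicates, Med12l to Med12 from -10.17 to -9.34, and Med13l to Med13 from 1.29 to 1.72. With same-numbered pairs the exact sign-flip p was 0.25 for each ratio, the smallest that 3 pairs can give. Where same-numbered libraries correlated least, the replicate block called 8 members in S3 against S0-Low, adding Cdk19 (1.06), and 11 in Lin+ against S3. It called 42.4% and 48.1% of all genes there. In these comparisons, as in all the others, each of the 6 libraries correlated best with its own number, a hint from the data and not from the design. The kinase module minus the other members differed by 0.43 between S3 and S0-Low with Med12l and by 1.29 without it. Values of single genes were tallied only for members called in the main fit of a comparison and for the 7 kinase module genes. Of these values 702 kept their direction and call, 46 lost a call and 23 gained one, and the rest changed sign where neither value was called. Members outside this tally can move more, since under library totals the sign turned for 14 of all 33 members in S3 against S0-Low. The causes of these changes were not tested. The limit that 0 counts allow ran from 0.0622 to 0.249 CPM over the 18 libraries and was highest in S0-Low replicate 3, the shallowest.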
